A study of Mus musculus with 12 samples.

Results

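Alveolar macrophages, the resident phagocytes of the air sacs, carry surface and cytoskeletal proteins that are otherwise known from epithelia. The 8 genes described here are of that kind and were chosen by symbol as genes that mark alveolar macrophages. They encode the keratins Krt79 and Krt19, the adhesion molecules Cdh1 and Epcam, the membrane proteins Perp and Cd9, the membrane-anchored enzyme Car4 and the ion channel Kcnn3. All 8 were found among the 40847 gene rows of the count table, and all 8 were among the 14749 genes with enough counts to be tested.

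The RNA came from mouse fetal liver alveolar-like macrophages (FLAMs), macrophages grown from fetal liver and listed in the labels as a cell line. All groups were grown with mouse GM-CSF, the growth factor that alveolar macrophages depend on, at 30 ng/ml. The untreated group received nothing else, the TGFβ group was cultured with recombinant human TGFβ1 at 20 ng/ml, the Pam3 group was given Pam3CSK4 at 25 ng/ml for 18 h, and the Pam3+TGFβ group had both. Each group has 3 libraries, and the labels do not say whether these came from separate cultures or animals, so p-values measure the spread between these libraries, which may be technical. The cells lack the lung environment and the neighbouring epithelium of alveolar macrophages in an animal.

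TGFβ signals through paired receptor kinases that phosphorylate SMAD proteins, which then enter the nucleus and act on gene promoters. In epithelial cells it is the textbook trigger of the epithelial-to-mesenchymal transition, in which E-cadherin, EpCAM and keratins are lost under repressors of the SNAI and ZEB families that bind E2 boxes. In lung macrophages, TGFβ is instead known as a signal needed for the alveolar identity. Pam3CSK4 is a synthetic lipopeptide that activates the receptor TLR2 together with TLR1.

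Promoter sequences are shown for Krt79 and Epcam, the members that were nearest to 0 without TGFβ. They are the 250 bases before the RefSeq start, taken from a RefSeq table of GRCm38.p6, and each matched GRCm39 at exactly 1 place. The Krt79 sequence lies at chr15:101848760-101849009 on the minus strand and that of Epcam at chr17:87943157-87943406 on the plus strand, with the E2 box letters (CAGGTG or, on the other strand, CACCTG) in capitals.
Krt79: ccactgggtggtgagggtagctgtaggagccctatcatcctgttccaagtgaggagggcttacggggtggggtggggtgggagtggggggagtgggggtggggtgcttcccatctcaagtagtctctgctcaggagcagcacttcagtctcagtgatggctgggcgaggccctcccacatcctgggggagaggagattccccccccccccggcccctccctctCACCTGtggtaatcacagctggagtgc
Epcam: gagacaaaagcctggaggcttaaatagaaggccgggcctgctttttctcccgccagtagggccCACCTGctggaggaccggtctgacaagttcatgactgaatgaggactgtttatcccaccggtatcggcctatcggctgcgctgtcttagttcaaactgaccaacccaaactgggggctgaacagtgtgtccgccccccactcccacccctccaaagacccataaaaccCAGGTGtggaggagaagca

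The Krt79 window holds 1 E2 box, 27 to 22 bases before the start, on the opposite strand. The Epcam window holds 2, at 187 to 182 bases before the start on the opposite strand and at 19 to 14 bases on the same strand. Of the 8 members, 5 are in the table (Krt79, Epcam, Car4, Cd9 and Kcnn3), and 3 of these 5 hold the box, Cd9 being the third with a box 73 to 68 bases before the start. Among 32851 windows of the same length, 17.2% hold it. Searched on both strands, the SMAD palindrome GTCTAGAC (0.167% of windows), the shorter SMAD letters CAGACA (17.1%), the PU.1 letters GAGGAAGT (2.44%), the AP-1 letters TGANTCA (6.75%) and the TATA letters TATAAA (12.4%) were not in the windows of the 5 members. The AP-1 letters and the SMAD palindrome read the same on both strands. A match of letters is a description of the sequence and not evidence of binding.

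Library totals ran from 34036650 to 44374115 counts. Libraries fell into 2 sets by the share of counts in mitochondrially encoded genes, at 0.068 to 0.113% in 7 libraries and 0.348 to 0.596% in 5. The low set holds untreated replicates 1 and 2, TGFβ replicate 2, Pam3 replicate 1 and all 3 Pam3+TGFβ libraries, so comparisons with Pam3+TGFβ cannot be made within the high set. Macrophage markers were present throughout (10 of 10 tested), with summed levels of 33000 to 37300 CPM in untreated, 17600 to 18600 in TGFβ, 36100 to 37200 in Pam3 and 26900 to 27600 in Pam3+TGFβ libraries. Most of this sum was Lyz2, at 29820 ± 2120 CPM in untreated and 15250 ± 460 CPM in TGFβ libraries (SD, n = 3). Of the others, Itgam (log2 -4.81), Adgre1 (-1.06), Cd68 (-0.64), Ptprc (-0.53), Cd14 (-0.36) and Csf1r (-0.26) were called lower with TGFβ alone. Fcgr1 rose (0.17), and Mertk and Spi1 were not called (-0.01 and -0.09). CPM is the count rate of a gene relative to the size of its library, with library sizes scaled by TMM. Alveolar markers other than the 8 genes moved in both directions with TGFβ alone. Siglecf was at 32.2 ± 2.10 CPM in untreated and 300.4 ± 9.99 CPM in TGFβ libraries, while Fabp4 was at 31.1 ± 1.12 and 0.132 ± 0.0507 CPM (SD, n = 3). Ear1 (log2 3.84), Ear2 (1.19), Pparg (0.94), Cidec (0.85), Chil3 (0.77) and Plet1 (0.15) were also called higher. Marco (log2 -4.12), Fabp5 (-1.07) and Atp6v0d2 (-0.22) were called lower. So was Itgax, from 335.3 ± 11.4 to 167.9 ± 7.68 CPM (SD, n = 3). In bulk RNA, fewer cells of a type and less RNA per cell cannot be told apart.

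General epithelial markers were almost without counts. Of 11 general epithelial markers, 6 had no count in any library (Krt8, Krt18, Krt5, Krt14, Krt7 and Cldn4), and all 11 were under 1 CPM in every group. Their summed level was 0.120 to 0.257 CPM in untreated, 0.272 to 0.367 in TGFβ, 0.0318 to 0.338 in Pam3 and 0.116 to 0.268 in Pam3+TGFβ libraries. Of 10 lung epithelial markers, 5 had no count (Sftpc, Sftpa1, Sftpd, Nkx2-1 and Aqp5). The other 5 summed to 16.5 to 18.8 CPM in untreated, 6.77 to 7.96 in TGFβ, 14.6 to 15.3 in Pam3 and 6.28 to 7.39 in Pam3+TGFβ libraries. Most of this was Hopx, a homeodomain protein gene, which fell from 16.4 ± 1.22 to 5.63 ± 0.51 CPM with TGFβ (SD, n = 3). Ager, the other one tested, was not called, at 1.39 CPM in untreated and 1.53 CPM in TGFβ libraries (adjusted p = 0.753). Langerhans cells of the skin are another macrophage lineage with Cdh1 and Epcam. The summed level of 8 Langerhans markers was 1130 to 1150 CPM in untreated, 1220 to 1260 in TGFβ, 1270 to 1300 in Pam3 and 1380 to 1420 in Pam3+TGFβ libraries. The genes behind this sum moved in both directions with TGFβ, with Cd24a and Ly75 higher (log2 0.58 and 0.31) and Id2 and Mfge8 lower (-0.51 and -0.13), and the lineage factor Runx3, at 1.24 CPM in untreated libraries, was lower by a log2 change of -3.02. Their defining lectin Cd207 had no count in untreated or Pam3 libraries and at most 13 counts in any TGFβ library.

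Without Pam3, TGFβ raised 7 of the 8 genes, and Kcnn3 was not called. Calls are those of edgeR's quasi-likelihood test with a p below 0.05 after Benjamini-Hochberg adjustment over all 14749 genes. Of all tested genes, 51.0% were called in this comparison, 22.9% higher and 28.1% lower. The median log2 fold change was 1.00 over the 8 genes and -0.01 over all genes. Krt79 and Epcam passed the filter on low counts through the libraries with TGFβ, where they are high. Their part in the counts and medians of this paragraph, without and with Pam3, is therefore not support for a rise. Among the 6 members with at least 10 counts in every library, 5 were called without Pam3, all higher. With that filter, 6913 genes in all were called, 3398 higher and 3515 lower. The percentages in this paragraph belong to the standard filter and are not the share for these 6 members. When Pam3 was present, the same 7 rose with TGFβ and Kcnn3 fell, while 45.3% of all genes were called, 21.5% higher and 23.8% lower, and the medians were 0.84 and 0.00. A call with a log2 change of at least 1 was made for 4 of the 8 without Pam3 (13.5% of all genes) and 3 with it (11.9%). The groups did not overlap for 7 of the 8 genes without Pam3 (56.4% of all genes) and for 8 of 8 with it (55.1%).

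**Figure D1:**
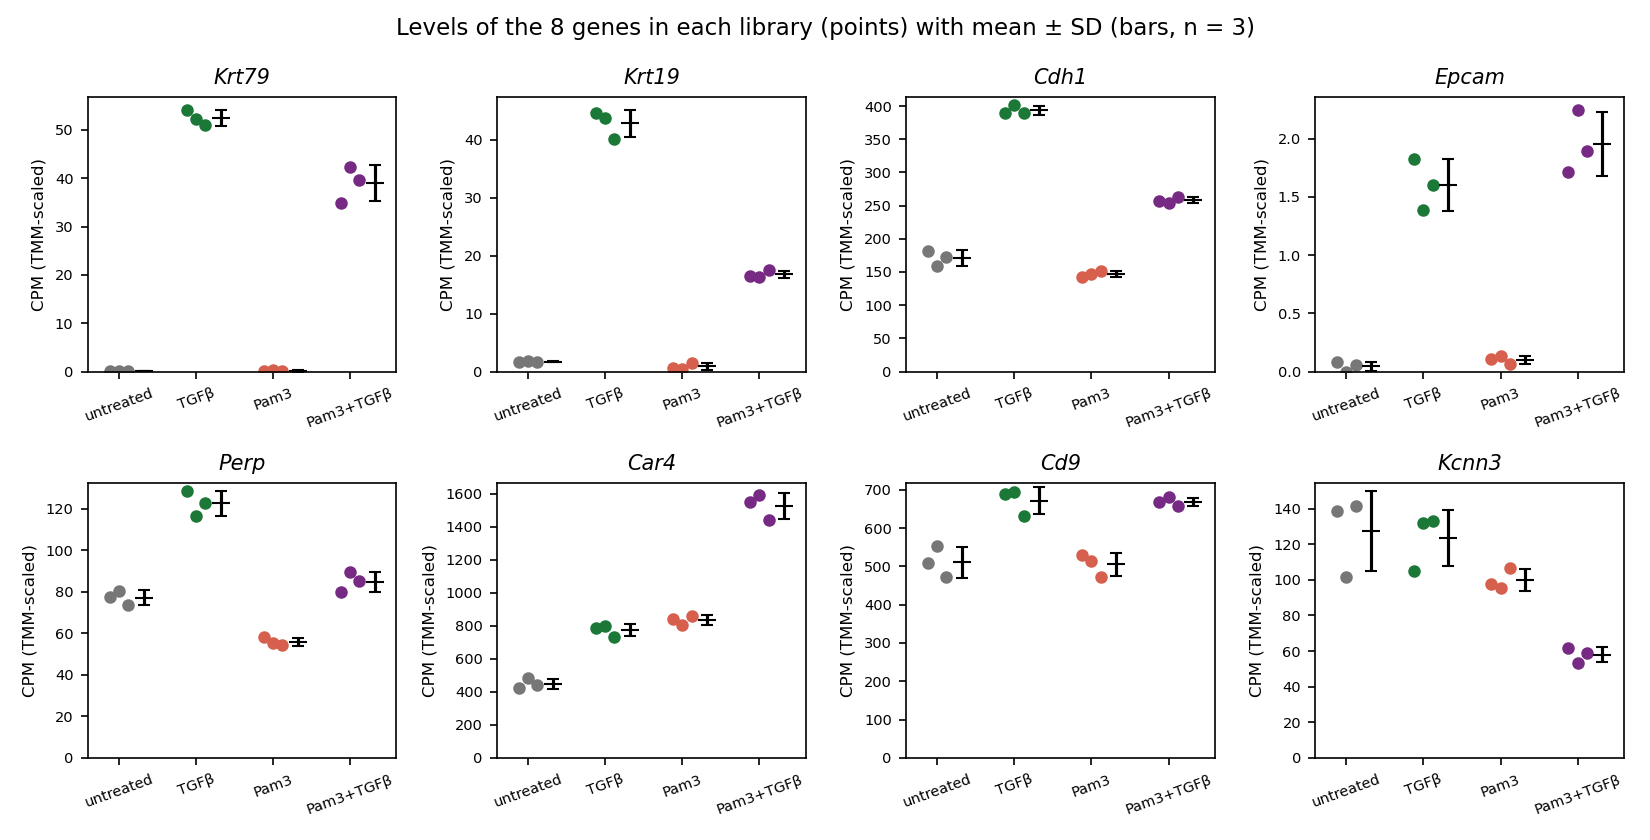
Level of each of the 8 genes in CPM (vertical axes, linear, from 0) in the 12 libraries, by group; points are libraries, with the mean and SD of each group (n = 3). Krt79, Krt19 and Epcam sit near 0 without TGFβ, Car4 is highest with both agents, and Kcnn3 is lowest with both.

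Krt79 is a type II keratin of the skin that is also found in alveolar macrophages. It lies at chr15:101837767-101848759 on the minus strand of GRCm39, a protein-coding gene of 9 exons. Its counts were 8, 6 and 3 in the untreated libraries and 1959, 2120 and 1946 with TGFβ, 1, 11 and 3 with Pam3, and 1200, 1583 and 1757 with both. All 6 libraries with TGFβ were thus far above all 6 without it. The ratio of scaled counts was 354 without Pam3 (95% counting interval 221 to 608) and 281 with Pam3 (170 to 502). On the log2 scale this was 8.44 (SE 0.204, adjusted p = 2.82e-19) without Pam3, the 18th largest in size among all genes. With Pam3 it was 8.09 (SE 0.211, adjusted p = 1.49e-18), the 10th largest. Krt79 passed the filter on low counts through the libraries with TGFβ, so these p-values and ranks are not support for a rise. The value with Pam3 rests on few counts, and was 7.58 without Pam3 replicate 1, 9.34 without Pam3 replicate 2 and 10.39 in the 7 libraries with a low mitochondrial share.

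Krt19 is the smallest type I keratin and is typical of simple epithelia (chr11:100031636-100039491, minus strand, 6 exons). It was at 1.68, 1.76 and 1.60 CPM in the untreated libraries and at 44.7, 43.7 and 40.1 CPM with TGFβ. With Pam3 alone it was at 0.650, 0.451 and 1.56 CPM and with both at 16.5, 16.4 and 17.5 CPM. TGFβ thus raised it in both settings, to a lower level when Pam3 was present. The log2 fold changes with TGFβ were 4.67 (SE 0.177, adjusted p = 7.63e-14) without Pam3 and 4.30 (SE 0.203, adjusted p = 2.6e-12) with it. The latter was 4.93 without Pam3 replicate 3, the library with the highest Krt19 level of its group, and 3.98 without Pam3 replicate 2, the one with the lowest.

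Cdh1 encodes E-cadherin, the calcium-dependent adhesion molecule of adherens junctions (chr8:107329941-107396880, plus strand, 16 exons). Unlike the keratins it was well expressed without TGFβ, at 182, 159 and 173 CPM in the untreated libraries, against 389.9, 401 and 389.9 CPM with TGFβ. With Pam3 it was at 142, 148 and 151 CPM, and with both at 258, 254 and 263 CPM. The 4 groups did not overlap. TGFβ raised Cdh1 by 2.3-fold without Pam3 (log2 1.20, SE 0.0458, adjusted p = 2.74e-17) and 1.76-fold with it (log2 0.81, SE 0.0457, adjusted p = 9.14e-14). Epcam encodes the calcium-independent epithelial cell adhesion molecule (chr17:87943407-87958557, plus strand, 9 exons). It had 3, 0 and 2 counts in the untreated libraries, 66, 56 and 61 with TGFβ, 4, 5 and 2 with Pam3, and 59, 84 and 84 with both. The ratio of scaled counts was 36.6 without Pam3 (95% counting interval 15.4 to 114) and 19.1 with it (10.5 to 38.9), with adjusted p = 2.34e-08 and 8.75e-08. Epcam passed the filter on low counts through the libraries with TGFβ, so these p-values are not support for a rise. Even with TGFβ, its level was 1.60 ± 0.222 CPM (SD, n = 3). The fitted log2 fold change without Pam3, 5.09, was 5.78 without untreated replicate 1 and 4.49 without untreated replicate 2.

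Perp encodes a desmosomal membrane protein first described as a p53 target (chr10:18720715-18732821, plus strand, 3 exons). It was at 77.5, 80.5 and 73.4 CPM in the untreated libraries and 129, 117 and 123 CPM with TGFβ. It was at 58.1, 55.5 and 54.4 CPM with Pam3 and 79.7, 89.5 and 85.0 CPM with both. The log2 fold changes with TGFβ were 0.67 (SE 0.0577, adjusted p = 3.27e-10) and 0.60 (SE 0.0584, adjusted p = 3.86e-09). Each TGFβ group lay above its own control group, but the libraries with both agents overlapped the untreated ones.

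Car4 encodes a carbonic anhydrase held on the outer cell surface by a lipid anchor, which interconverts carbon dioxide and bicarbonate (chr11:84848020-84856879, plus strand, 8 exons). It was at 421, 483 and 440 CPM in the untreated libraries and at 788, 800 and 735 CPM with TGFβ. With Pam3 it was at 841, 803 and 861 CPM, and with both agents at 1551, 1595 and 1441 CPM. Both agents raised it, and all 3 libraries with both were above every other library. The TGFβ fold was 1.73 without Pam3 (log2 0.79, SE 0.0584, adjusted p = 1.65e-11) and 1.83 with it (log2 0.87, SE 0.0585, adjusted p = 2.89e-12).

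Cd9 encodes a tetraspanin, a scaffold that gathers integrins and other membrane proteins (chr6:125437210-125471778, minus strand, 8 exons). It was at 508, 553 and 472 CPM in the untreated and 531, 513 and 473 CPM in the Pam3 libraries. With TGFβ it was at 690.2, 694 and 632 CPM, and with both at 668, 681 and 659 CPM. The 6 libraries with TGFβ lay above the 6 without it. The log2 fold change was 0.40 in each setting (SE 0.0584 in each, adjusted p = 3.01e-06 and 2.48e-06). A lncRNA on the opposite strand, Gm26728, shares 242 exon bases with Cd9 and was at 1.57 ± 0.823 CPM in untreated and 3.40 ± 1.56 CPM in TGFβ libraries (SD, n = 3). Krt19 shares 329 exon bases with the opposite-strand lncRNA Gm73150, which is not a row of the table, and the strand setting of the counting is not given in the sources used here.

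Kcnn3 encodes SK3, a small-conductance potassium channel opened by calcium (chr3:89427460-89582439, plus strand, 8 exons). It was at 139, 101 and 142 CPM in the untreated libraries and 105, 132 and 133 CPM with TGFβ, which overlap. With Pam3 it was at 97.5, 95.5 and 107 CPM and with both agents at 61.4, 53.4 and 59.1 CPM, the lowest levels of the 12 libraries. TGFβ without Pam3 gave a log2 difference of -0.04 (95% interval -0.34 to 0.26, adjusted p = 0.824), which was 0.14 within the low and -0.25 within the high mitochondrial share. TGFβ with Pam3 lowered it by 1.72-fold (log2 -0.79, SE 0.137, adjusted p = 0.000869).

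**Figure D2:**
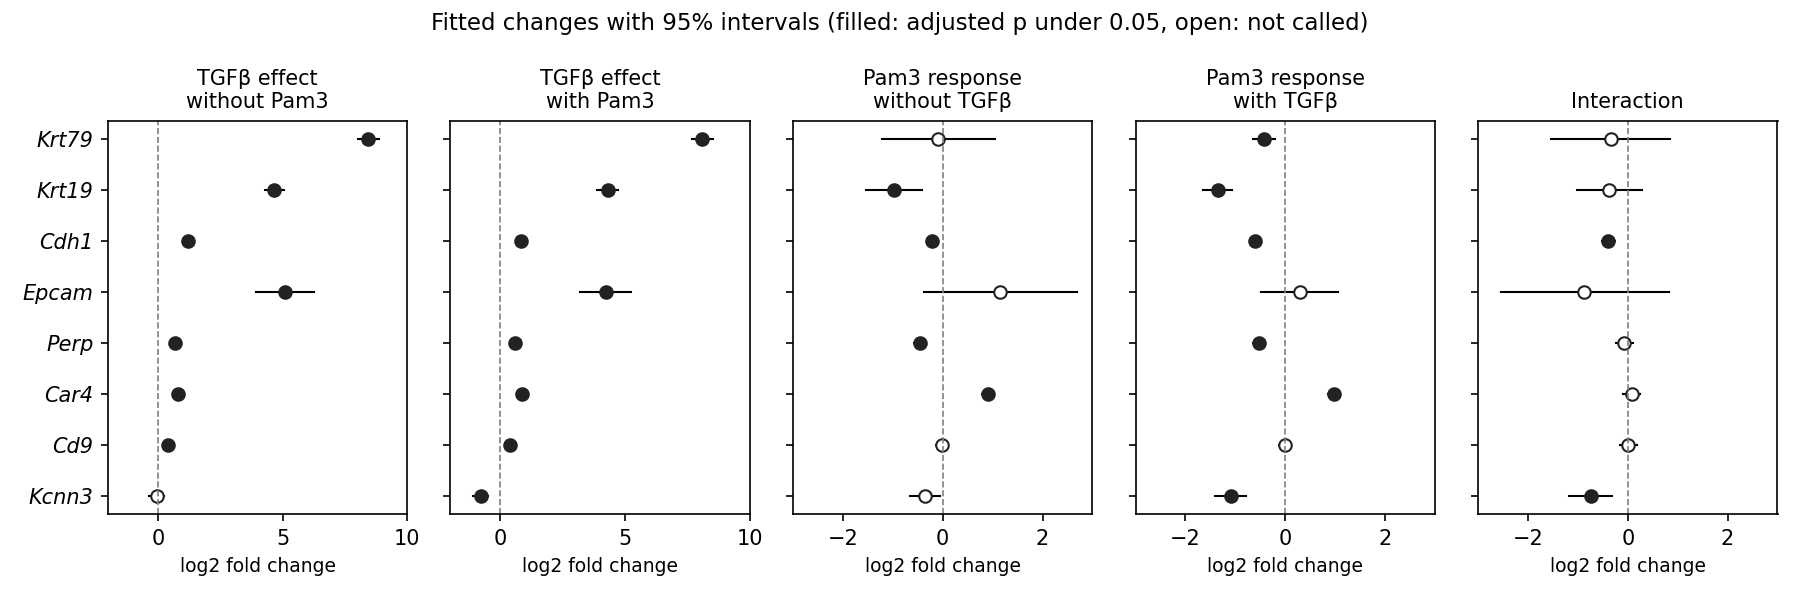
Log2 fold change of each of the 8 genes (horizontal axes) for the TGFβ effect, the Pam3 response and their interaction, with 95% intervals from edgeR and filled points for called genes. Krt79, Epcam and Krt19 have the largest TGFβ effects, and Car4 is the member that rose with Pam3 in both settings.

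Within the libraries of low mitochondrial share (2 untreated and 1 TGFβ library), the log2 ratios of TGFβ to untreated, with 0.05 CPM added to each mean, were 4.63 for Krt19, 1.24 for Cdh1, 0.56 for Perp, 0.82 for Car4 and 0.39 for Cd9. Within those of high share (1 untreated and 2 TGFβ libraries) they were 4.69, 1.17, 0.78, 0.79 and 0.49 in the same order. For the genes near 0, mean levels without and with TGFβ were 0.177 and 52.3 CPM (Krt79) and 0.0395 and 1.38 CPM (Epcam) in the low set, and 0.0855 and 52.6 CPM and 0.057 and 1.71 CPM in the high set. Each of these comparisons has a single library on 1 side. In the fit of the 7 low-share libraries, where such a library is assumed to vary like the other groups, 7 members and 5132 genes in all were called for the TGFβ effect without Pam3, and the high set was not tested. With a term for the share in the model of all 12 libraries, 7 members were called without Pam3, of 7321 genes in all, and 8 with it, of 6063.

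Pam3 in cells without TGFβ changed 4 of the 8 genes, with Car4 higher and Krt19, Cdh1 and Perp lower. Of all genes, 18.3% were called in this comparison, 9.62% higher and 8.66% lower. The median log2 fold change was -0.15 over the 8 genes and 0.00 over all. Groups did not overlap for these 4 genes, against 31.4% of all genes. Car4, the surface carbonic anhydrase, rose by 1.86-fold (log2 0.90, SE 0.0585, adjusted p = 2.01e-11). Perp, the desmosomal protein, had a log2 change of -0.46 (SE 0.0585, adjusted p = 1.6e-06), and Cdh1 one of -0.22 (SE 0.0456, adjusted p = 0.000952). No member had a call with a log2 change of 1 or more, against 1.95% of all genes. In the 7 libraries with a low mitochondrial share, the log2 change of Cdh1 was -0.26 and not called (adjusted p = 0.102). That fit has 1 Pam3 library and takes its spread from the other groups, so the lost call does not show a smaller change.

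The fall of Krt19 in these cells had a log2 change of -0.98 (SE 0.266, adjusted p = 0.0144). Pam3 replicate 3, at 1.56 CPM, was close to the lowest untreated library at 1.60 CPM, and without that replicate the difference was -1.60. The call was lost without untreated replicate 1 (log2 -0.97, adjusted p = 0.0515) or 2 (-0.94, 0.0547). It was lost too without Pam3 replicate 1 (-0.80, 0.0892) or 2 (-0.65, 0.0635), and in a fit of the 6 libraries compared (-0.94, 0.114). The log2 ratio was -1.34 within the low and -0.64 within the high mitochondrial share. Of the genes not called, Cd9 differed by -0.02 (95% interval -0.14 to 0.11) and Kcnn3 by -0.35 (-0.65 to -0.05, adjusted p = 0.114), which became a call without untreated replicate 2 (-0.49, adjusted p = 0.00185). Krt79 and Epcam had too few counts in both groups for a narrow interval, at -1.22 to 1.05 for Krt79 and -0.38 to 2.69 for Epcam.

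In cells with TGFβ, Pam3 changed 6 of the 8 genes. Car4 rose and Krt79, Krt19, Cdh1, Perp and Kcnn3 fell, while 38.5% of all genes were called, 20.4% higher and 18.1% lower (3008 higher and 2670 lower, or 2477 and 3489 with upper-quartile scaling). The medians were -0.48 over the 8 genes and -0.02 over all, and the groups did not overlap for the 6 genes called (50.4% of all genes). Krt19 went from 42.8 ± 2.41 to 16.8 ± 0.607 CPM (SD, n = 3), a log2 change of -1.35 (SE 0.137, adjusted p = 2.2e-07). Kcnn3 went from 124 ± 15.9 to 58.0 ± 4.11 CPM, a log2 change of -1.09 (SE 0.137, adjusted p = 0.000103). These were the 2 members called with a change of 1 log2 unit or more, against 7.51% of all genes.

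The log2 change was -0.61 for Cdh1 (SE 0.0452, adjusted p = 3.01e-11) and -0.53 for Perp (SE 0.0576, adjusted p = 3.14e-08). Krt79 went from 52.5 ± 1.62 to 39.0 ± 3.78 CPM (SD, n = 3), a log2 change of -0.43 (SE 0.107, adjusted p = 0.0026), and was not called by limma-trend on the deposited normalized values (log2 -0.43 there too, adjusted p = 0.56). Even so, its level with both agents was far above that of the untreated libraries. Car4 rose by 1.97-fold (log2 0.98, SE 0.0586, adjusted p = 3.9e-13). Cd9 differed by -0.01 (95% interval -0.13 to 0.11) and Epcam by 0.29 (-0.48 to 1.05), and neither was called. In the 7 libraries of low mitochondrial share, with 1 TGFβ library that is assumed to vary like the other groups, 6 members and 3370 genes in all were called, against 5678 genes in all 12 libraries.

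The interaction, the log2 Pam3 response of TGFβ-treated cells less that of cells without TGFβ, was called for Cdh1 and Kcnn3, both lower, among 15.9% of all genes, 10.3% higher and 5.67% lower (1516 and 836, or 1255 and 1097 with upper-quartile scaling). Neither reached a size of 1, as 3.25% of all genes did. For Cdh1, encoding E-cadherin, it was -0.39 (SE 0.0641, adjusted p = 7.26e-05). In the 7 libraries with a low mitochondrial share it was again -0.39 but not called (adjusted p = 0.0736). The SK3 channel gene Kcnn3 had an interaction of -0.74 (SE 0.191, adjusted p = 0.0257). Its call was lost, at a like size, without a filter on low counts (-0.73, adjusted p = 0.0507) and with the mitochondrial share term (-0.70, 0.103). It was also lost without TGFβ replicate 2 (-0.71, adjusted p = 0.0658) or 3 (-0.71, 0.0714), or Pam3 replicate 3 (-0.69, 0.062). The same held without Pam3+TGFβ replicate 2 (-0.70, adjusted p = 0.0704) or 3 (-0.78, 0.058), and in the 7 libraries of low share (-0.90, 0.107).

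For Car4 the interaction was 0.08 (95% interval -0.09 to 0.25). It was 0.01 for Cd9 (-0.16 to 0.18) and -0.07 for Perp (-0.24 to 0.10). The intervals were wider for Krt19 (-1.02 to 0.28), Krt79 (-1.53 to 0.85) and Epcam (-2.55 to 0.82). Krt79 and Epcam had at most 11 counts in any library without TGFβ, and the Krt19 level in the Pam3 libraries ran from 0.451 to 1.56 CPM.

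Divided by exon length, so that genes can be compared with each other, Cd9 stood highest in the untreated libraries at 240.3 CPM per kb. Car4 followed at 131, Perp at 38.5 and Cdh1 at 36.9, which overlapped, then Kcnn3 at 12.2 and Krt19 at 0.905 CPM per kb. Krt79 (0.0309) and Epcam (0.0175) were lowest and overlapped. With TGFβ the order was Cd9 (316), Car4 (226), Cdh1 (84.9), Perp (61.1), Krt19 (23.1), Kcnn3 (11.8) and Krt79 (11), the last pair overlapping, and Epcam (0.619). With both agents Car4 led at 447 CPM per kb, above Cd9 at 315, and Kcnn3 at 5.54 stood below both keratins.

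**Figure D3:**
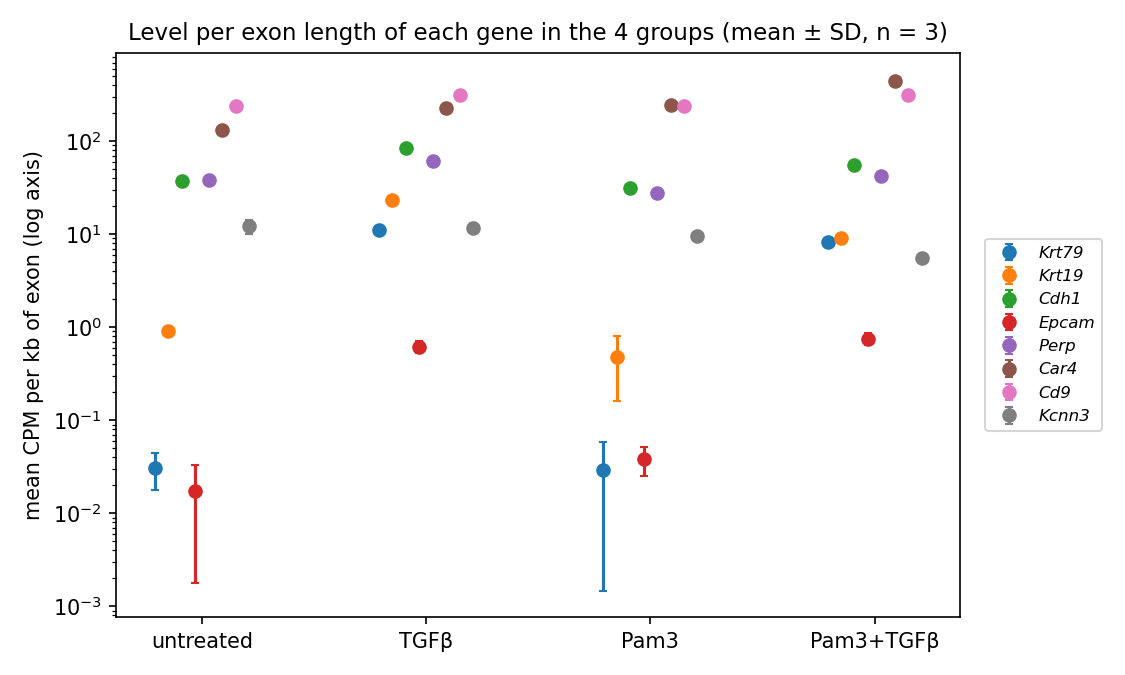
Mean level per kb of exon (vertical axis, log scale) of the 8 genes in the 4 groups, with SD over 3 libraries; a lower bar that would come near 0 is drawn down to 5% of the mean. Krt79 and Krt19 lie below Kcnn3 without TGFβ and near or above it with TGFβ, where Epcam is the lowest of the 8.

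Most of the keratin family was not detected. Of 49 other type I and type II keratins, 36 had no count in any library, and 6 were tested. TGFβ raised 3 of these 6 and lowered 1 without Pam3, and raised 4 and lowered 1 with it, with medians of 1.43 and 1.67. Krt78 passed the filter on low counts only through the libraries with TGFβ, so these counts and medians partly follow from the filter. The p-value of Krt78 is likewise not support for a rise. Krt78, a skin keratin whose gene is the neighbour of Krt79, rose from 0.157 ± 0.0677 to 3.89 ± 0.409 CPM (log2 4.60, adjusted p = 1.87e-10). Krt1, the keratin of the upper epidermis, rose from 0.216 ± 0.135 to 0.713 ± 0.116 CPM, and Krt80 fell from 8.37 ± 1.53 to 1.65 ± 0.301 CPM (SD, n = 3). Krt15 and Krt9, the neighbours of Krt19, had no count. Pam3 raised 1 keratin and lowered 1 both without TGFβ (median -0.52) and with it (0.44).

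Partners of Cdh1 did not move as a block. Of 12 tested genes of cadherin-catenin adhesion, TGFβ raised 4 and lowered 6 without Pam3 (median -0.15) and raised 3 and lowered 3 with it. Cdh5, among those lowered, passed the filter on low counts only through the libraries without TGFβ. It had at most 4 counts in a TGFβ library and 7 with both agents. These counts and the median thus partly follow from the filter. Nectin3, an immunoglobulin-type adhesion molecule, rose from 18.5 ± 1.98 to 50.3 ± 0.821 CPM, and Jup, encoding plakoglobin, from 124 ± 4.35 to 168 ± 15.0 CPM. Vcl, encoding the actin linker vinculin, fell from 60.3 ± 4.13 to 20.8 ± 0.771 CPM (SD, n = 3). Pam3 raised 2 and lowered 2 of the 12 without TGFβ, and raised 4 and lowered 3 with it. Cdh3, the gene next to Cdh1, had 4 counts in all.

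Of 13 tested tight junction genes and claudin partners of EpCAM, TGFβ raised 5 and lowered 0 without Pam3 (median 0.75) and raised 4 and lowered 2 with it (0.28). With the mitochondrial share term these counts were 5 and 1, and 3 and 2. Cldn1, encoding a claudin of tight junctions, passed the filter on low counts only through the libraries with TGFβ. The counts and medians of this list thus partly follow from the filter, and the p-value of Cldn1 is not support for a rise. Cldn1 went from 0.134 ± 0.0537 to 3.96 ± 0.984 CPM with TGFβ (log2 4.88, adjusted p = 2.27e-10). Its Pam3 response was lower with TGFβ (interaction -2.28, adjusted p = 0.0105). Without TGFβ, that response rests on few counts (0.198 ± 0.0613 CPM with Pam3, log2 0.56, SE 0.522). F11r, encoding the junctional adhesion molecule JAM-A, rose from 93.0 ± 2.39 to 348 ± 8.58 CPM (SD, n = 3). Pam3 changed 0 of the 13 without TGFβ, and raised 2 and lowered 5 with it.

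Taken as 1 list, desmosome genes and relatives of Perp mostly went the other way from Perp. The lowered genes named here are relatives of Perp, while the desmosomal Pkp2 rose. Of 7 tested, TGFβ raised 2 and lowered 5 both without Pam3 (median -0.88) and with it (-0.82). Pmp22, a tetraspan protein gene of the same family, had 6869 counts in the untreated libraries together and 5 with TGFβ, all 5 in 1 of the 3 libraries, a scaled ratio of 1380-fold lower (95% counting interval 589 to 4240). With Pam3 present it was 53.3-fold lower with TGFβ (47.1 to 60.5). Emp1 and Emp2, of that family too, fell from 45.7 ± 1.71 to 7.57 ± 0.968 CPM and from 2.50 ± 0.356 to 0.295 ± 0.188 CPM. Pkp2, encoding the desmosomal plaque protein plakophilin, rose from 13.8 ± 1.16 to 76.7 ± 1.28 CPM (SD, n = 3). Pam3 raised 3 and lowered 1 of the 7 without TGFβ, and raised 4 and lowered 1 with it.

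Of 16 tested tetraspanins other than Cd9, TGFβ raised 6 and lowered 9 without Pam3 (median -0.25) and raised 3 and lowered 9 with it (-0.34). Tspan18, among those lowered, passed the filter on low counts only through the libraries without TGFβ. These counts and medians thus partly follow from the filter. Tspan3 fell from 18.6 ± 1.92 to 3.64 ± 0.591 CPM and Tspan13 rose from 0.997 ± 0.123 to 2.87 ± 0.344 CPM (SD, n = 3). Pam3 raised 2 and lowered 3 without TGFβ, and raised 3 and lowered 8 with it. Of 7 other carbonic anhydrases tested, TGFβ raised 2 and lowered 2 without Pam3 (median -0.25), and raised 2 and lowered 1 with it (-0.18). The cytosolic Car13 fell from 34.8 ± 2.02 to 10.0 ± 1.34 CPM with TGFβ and was at 47.0 ± 3.75 CPM with both agents. Car2, also cytosolic, was at 2.63 ± 0.651 CPM in untreated and 20.9 ± 0.597 CPM in Pam3+TGFβ libraries (SD, n = 3), and like Car4 was raised by each agent. Unlike Car4, Car2 had a called interaction (1.34, adjusted p = 0.000119). Pam3 raised 2 carbonic anhydrases and lowered 0 in each setting.

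Among 7 other calcium-activated potassium channels, Kcnn4 was the one with enough counts to be tested. It encodes the intermediate-conductance channel KCa3.1 of immune cells, and fell from 55.0 ± 1.5 to 0.811 ± 0.273 CPM with TGFβ (log2 -6.08, SE 0.140, adjusted p = 2.23e-21) and from 51.4 ± 2.91 to 1.51 ± 0.306 CPM in the presence of Pam3 (log2 -5.10; SD, n = 3). Kcnn3 by contrast was at 124 ± 15.9 CPM with TGFβ alone. Pam3 did not give a call for Kcnn4 without TGFβ (log2 -0.10, adjusted p = 0.546) and raised it with TGFβ (0.88, adjusted p = 0.000624).

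**Figure D4:**
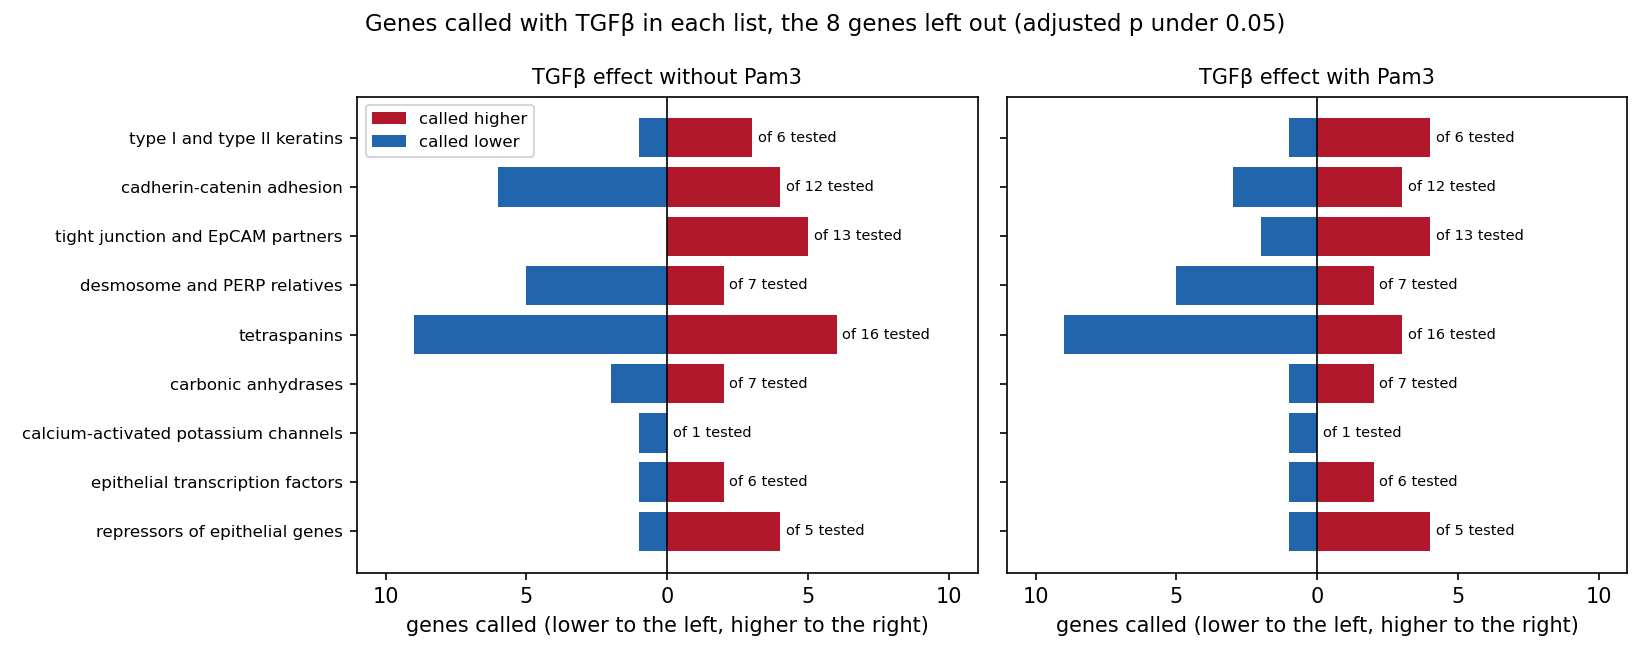
Number of genes called higher (to the right) and lower (to the left) with TGFβ in 9 lists of related genes, without and with Pam3, the 8 genes themselves left out. Tetraspanins and desmosome genes with relatives of Perp have more genes lower than higher, while repressors of epithelial genes have 4 of 5 higher in both settings. Of all tested genes, 28.1% were called lower and 22.9% higher without Pam3, and 23.8% and 21.5% with it.

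Transcription factors known from epithelia were measured next to those that repress epithelial genes. Of 6 tested epithelial factors, TGFβ raised 2 and lowered 1 both without Pam3 (median 0.71) and with it (0.91). Grhl1, a grainyhead-like factor of epidermis, rose from 2.53 ± 0.807 to 7.46 ± 0.721 CPM, and Klf4 fell from 191 ± 11.9 to 137 ± 0.0840 CPM. Of 5 tested repressors, TGFβ raised 4 and lowered 1 in both settings, with medians of 0.50 and 0.68. Those raised include Snai3, from 2.15 ± 0.438 to 7.05 ± 1.01 CPM, and Tcf3, from 60.8 ± 3.25 to 86.2 ± 3.13 CPM. Of the ZEB family repressors, Zeb1 rose from 1.96 ± 0.574 to 2.85 ± 0.527 CPM (log2 0.54, adjusted p = 0.0456), while Zeb2 fell from 347 ± 29.9 to 191 ± 12.4 CPM (log2 -0.86, adjusted p = 4.91e-12; SD, n = 3). Pam3 lowered 1 epithelial factor and raised 0 in each setting, and raised 1 repressor without TGFβ and raised 3 and lowered 2 with it.

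Across the 12 libraries, the members' log2 CPM was most alike for Krt79 and Epcam and for Krt19 and Cdh1 (Pearson r 0.97 each), and Car4 and Kcnn3 ran opposite to each other (-0.87). These coefficients describe 12 libraries that share the same 4 group differences. The genes most like Krt79 were Fads2 (0.993), Ear1 (0.992) and Cyb561a3 (0.992), and 315 genes had an r over 0.95 with it. Those most like Krt19 were Hmga2-ps1 (0.991), Ablim1 (0.989) and B4galnt1 (0.987). For Cdh1 they were Mmd (0.998), Net1 (0.998) and Akap5 (0.997), and for Epcam Sowahc (0.994), Sfpq (0.993) and Spsb1 (0.990). Fewer genes resembled the others, with 112 over 0.95 for Perp (Nelfcd 0.990, Ltc4s 0.988, Sulf2 0.986) and 80 for Car4 (Olr1 0.991, Cav1 0.989, Ppp1r12b 0.988). Cd9 had 66 (Msmo1 0.983, Fdps 0.976, Exosc7 0.974). Kcnn3 had 18, among them Il6st (0.989) and Il6ra (0.972), which encode the subunits of the interleukin-6 receptor.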

How the data were processed

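Poly(A) RNA of 12 FLAM libraries was sequenced from both ends. Per the submitters' processing notes and the labels' protocols, the authors aligned reads to GRCm39 with Bowtie2 2.4.1, counted them with featureCounts of Subread 2.0.0 and tested with DESeq2 1.36.0 in R 4.2.1; strand setting and annotation are not given in the sources used here. Bowtie2 does not split reads over introns, so junction reads can be lost. The deposited raw values are whole-number counts per gene. A second deposited file holds a signal normalized by the authors, equal to those counts divided by a constant per library, and was used only as an alternative.

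Genes passing filterByExpr (minimum count 10) were scaled by TMM and tested in edgeR 4.0.16 (R 4.3.3) by quasi-likelihood, with the robust option and 4 group means over all 12 libraries and Benjamini-Hochberg adjustment over 14749 genes. SE is the log2 fold change divided by the square root of F. Ratios of scaled counts have exact 95% counting intervals, which cover counting error only. Correlations used log2 CPM with a prior count of 2. With a prior count of 0.5, 2 of the 3 genes most like Krt79, Krt19 and Epcam stayed among the 3. For the other members all 3 did. The 3 genes most like each member are named, except 1 that is not reported here. Positions, exons and lengths are from GENCODE M39, matched by symbol.

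The 8 members, the gene lists and the tests were chosen with earlier results of these data known. Named list genes are a part of those picked by rule: up to 4 called genes per list with the largest TGFβ effect without Pam3 and at least 1 CPM in a group; Cdh3, Krt15 and Krt9 are neighbours of members. Alternatives were other scalings, DESeq2 1.42.0, limma-trend of limma 3.58.1 on the normalized values plus 1, other filters, a replicate block, fits of 6 libraries and leaving out each library; the 2 using the mitochondrial share (split at 0.2%) were chosen after seeing the data. The procedure was tested on simulated counts. Between replicates of a group, chi-square per degree of freedom was 9.99 to 28 within a set of like mitochondrial share and 133 to 220 across the 2 sets. All values were above sampling noise, so each library counts once. What the 2 sets stand for was not tested.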

Additional observations from a re-analysis of the deposited data

Results flagged for a closer look

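The interaction, which tests whether the response to Pam3 differed with TGFβ, was called for 2 of the 8 genes and for 15.9% of all genes. The difference was -0.39 on the log2 scale for Cdh1, which fell by 0.22 with Pam3 without TGFβ and by 0.61 with it. It was -0.74 for Kcnn3, which differed by -0.35 without TGFβ (not called) and fell by 1.09 with it. The Kcnn3 call was lost without the filter on low counts, when any 1 of 5 libraries was left out and with the mitochondrial share term, where the value stayed between -0.78 and -0.69. In the 7 libraries of low mitochondrial share, neither gene was called, at -0.90 for Kcnn3 and -0.39 for Cdh1. That fit has 1 TGFβ and 1 Pam3 library and takes its spread from the other groups, so the lost calls do not show a smaller difference.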

How the results depend on the processing

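Over 22 alternatives and the 40 pairs of gene and comparison, 809 of 860 values kept direction and call, 16 lost a call, 1 gained one and 34, of values not called, changed sign. Krt79 and Epcam drop out under a minimum of 10 counts in each library. The interaction was called for 1 gene without a filter, 1 with the mitochondrial share term, 0 in the 7 libraries of low share, and 1 to 2 when leaving out each library. Those 7 libraries, being fewer, gave 1173 called genes in all for Pam3 without TGFβ (2697 with all 12), 3370 for Pam3 with TGFβ (5678) and 802 for the interaction (2352). Members called for Pam3 without TGFβ ran from 3 to 4 when leaving out each library, and genes in all from 1965 to 2729.

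Sign changes when leaving out each library concerned Kcnn3 with TGFβ (-0.18 to 0.08) and Krt79 with Pam3 without TGFβ (-1.32 to 0.44). Cd9 ranged from -0.07 to 0.05 with Pam3 without TGFβ and from -0.07 to 0.00 with it. The interaction ranged from -0.86 to 0.90 for Krt79, -0.69 to 0.26 for Krt19 and -0.06 to 0.07 for Cd9. In the 7 libraries of low share, Kcnn3 with TGFβ was at 0.16, Cd9 with Pam3 without TGFβ at 0.01, and the interaction at 2.18 for Krt79, 0.00 for Krt19 and -0.07 for Cd9. With the share term, the Cd9 values were 0.02 and -0.11. The Cd9 interaction was -0.04 with upper-quartile scaling, and its Pam3 response with TGFβ was 0.00 without a filter, in the fit of 6 libraries and by limma-trend. The cause of these changes was not tested.

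Libraries of the same replicate number were not consistently alike (18 pairs, r from -0.17 to 0.30, with 6 over 0.1, and 5 of 12 libraries closest to their own number). The labels do not state a pairing. This check cannot exclude one, as the 2 sets by mitochondrial share also cross the replicate numbers. With the replicate block, 7, 8, 4, 6 and 2 members were called for the TGFβ effect without and with Pam3, the Pam3 response without and with TGFβ and the interaction, as without it, and 7562, 6736, 2751, 5714 and 2393 genes in all. Depth limits the values of Krt79 and Epcam without TGFβ, which rest on at most 11 counts per library.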
